A study of Mus musculus with 3 samples.

Results

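*Apoe*, *Lrp1*, *Lpl*, *Gpihbp1*, *Abca1*, *Abcg1*, *Cd36*, *Fabp4* and *Plin2* are genes of lipoprotein and fatty acid handling, 9 of the 32285 genes counted in single cells of the mouse ascending aorta. They were taken by gene symbol and chosen by 1 measured value of these same data, a lower level of *Apoe* in mutant than in WT smooth muscle cells (SMCs). The *Apoe* values of SMCs in those 2 libraries are therefore given as a description and support nothing further. Each condition was a single 3′ droplet library of male mice at P45 on the C57BL/6J background. The WT library pooled 3 WT littermates and the mgR library 3 mice homozygous for the hypomorphic *Fbn1* mgR allele, a model of Marfan syndrome in which every cell carries the mutation. The mgR-LOS library pooled 4 such mutants that drank 0.6 g/L losartan, a blocker of the angiotensin II type I receptor, from P16. Whether the mutants of the mgR library were untreated or drank vehicle is not given by the labels.

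No condition was replicated, so no test between conditions was made. Genotype or treatment cannot be told apart from differences between pools of mice, digestions, runs or software releases. Intervals in parentheses are exact 95% intervals, and they cover counting error only. Levels are counts of unique molecular identifiers (UMIs) scaled to 1000000 UMIs of the cell class (CPM). They were not divided by transcript length, so they are compared between libraries and cell classes and not between genes. The 2 comparisons described, mgR over WT and mgR-LOS over mgR, share the mgR library.

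SMCs, fibroblasts, macrophages and endothelial cells (ECs) were gated on 6 marker genes each. A barcode entered a class when its own markers reached a threshold and those of the other 3 classes did not. The gates took 3629 WT, 3156 mgR and 7914 mgR-LOS barcodes as SMCs, 1326, 2406 and 3118 as fibroblasts, 87, 934 and 541 as macrophages, and 88, 199 and 133 as ECs. All 6 markers of each class lay at 20 CPM or more in their own gate in every library. *Fbn1*, the targeted gene, was at 361 CPM in WT, 150 CPM in mgR and 117 CPM in mgR-LOS over all barcodes that passed the quality limits. Those barcodes held a median of 13636, 12411 and 8334 UMIs, so the mgR-LOS library was the shallowest. The pairs of libraries shared 11 to 34 barcode sequences among barcodes that passed.

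ApoE is a secreted apolipoprotein through which cells take up lipoprotein remnants and to which macrophages hand cholesterol, and LRP1 is a large endocytic receptor that binds it. Lipoprotein lipase is made by parenchymal cells and carried by GPIHBP1 to the capillary lumen, where it frees fatty acids that CD36 takes up and FABP4 binds. ABCA1 and ABCG1 export cholesterol to lipoproteins under control of the liver X receptors, which also induce *Apoe* in macrophages, and PLIN2 coats lipid droplets.

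RefSeq promoter windows on GRCm38.p6 matched 5 of the 9 genes. These were *Apoe*, *Lrp1*, *Abca1*, *Cd36* and *Plin2*. The 250 bases before the start site are shown for *Apoe* (chr7:19699189-19699438, minus strand), the gene around which the values of SMCs are described, and for *Abca1* (chr4:53159896-53160145, minus strand), a textbook target of the liver X receptors. Capitals in *Abca1* mark a match, on the opposite strand, to the liver X receptor element, searched on both strands as the repeats GGTNA and GGTCA with 5 bases of any kind between them, whose first base lay 67 bases before the start.
Apoe: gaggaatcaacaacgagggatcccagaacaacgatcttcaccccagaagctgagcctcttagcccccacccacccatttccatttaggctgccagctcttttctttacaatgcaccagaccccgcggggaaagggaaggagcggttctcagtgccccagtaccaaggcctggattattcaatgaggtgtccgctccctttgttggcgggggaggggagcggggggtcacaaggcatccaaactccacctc
Abca1: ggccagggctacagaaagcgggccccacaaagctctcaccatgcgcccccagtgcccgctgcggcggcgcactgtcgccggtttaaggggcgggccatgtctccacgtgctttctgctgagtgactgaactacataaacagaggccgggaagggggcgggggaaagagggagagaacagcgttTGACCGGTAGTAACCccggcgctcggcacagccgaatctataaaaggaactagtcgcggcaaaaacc
That element occurred in 58 of 32851 such windows (0.177%). The *Abca1* window also held the E-box CACGTG, present in 6.02% of windows, the TATA box TATAAA, present in 12.4%, and the GC box GGGCGG, present in 32.7%. RefSeq lists 3 starts for *Apoe*, and in the window of the start shown none of these 4 sets of letters was found.

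*Apoe* (ENSMUSG00000002985, chr7:19696109-19699188, minus strand, GRCm38) was a macrophage gene in these aortas, and fibroblasts and ECs followed. The WT, mgR and mgR-LOS macrophages held 17352 CPM (17071 to 17638), 18387 CPM (18295 to 18480) and 13316 CPM (13200 to 13433). Fibroblasts held 4872 CPM (4837 to 4908), 2537 CPM (2519 to 2555) and 4115 CPM (4090 to 4140), and ECs 2147 CPM (2038 to 2260), 1705 CPM (1642 to 1769) and 3185 CPM (3071 to 3302). The order macrophages, fibroblasts, ECs and SMCs was the same in the 3 libraries, and no neighbors in it had overlapping intervals.

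In SMCs the WT and mgR-LOS libraries lay close together and the mgR library lay below both. WT SMCs held 519 CPM (513 to 526), mgR SMCs 185 CPM (181 to 188) and mgR-LOS SMCs 508 CPM (502 to 513). As ratios these were 0.355 (0.347 to 0.364) for mgR over WT, 2.75 (2.69 to 2.82) for mgR-LOS over mgR and 0.977 (0.962 to 0.993) for mgR-LOS over WT. Of the 5492 genes with at least 20 CPM in either library and at least 30 UMIs over both, 28 had a lower ratio of mgR over WT in SMCs than *Apoe*. For mgR-LOS over mgR, 5517 of 5529 genes had a lower ratio. Both ranks hold the low mgR level by which *Apoe* was chosen, so they are descriptions as well. Counting barcodes at a common depth cannot separate fewer cells with *Apoe* from less *Apoe* per cell here. At 1000 UMIs per barcode the mean was 0.535 *Apoe* UMIs in WT SMCs and 0.238 in mgR SMCs, so detection follows the mean level. After each barcode had been thinned to 1000 UMIs, 31.8% (30.3 to 33.3) of WT SMCs, 14.0% (12.8 to 15.2) of mgR SMCs and 31.6% of mgR-LOS SMCs held an *Apoe* UMI. Without thinning the WT and mgR shares were 88.3% and 64.7%.

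RNA from broken cells can reach any droplet, and classes that are not known to make *Apoe* were read beside the SMCs. They did not give a single level. WT T cells held 136 CPM (10 UMIs in 16 barcodes), mgR T cells 132 CPM (102 to 168) and mgR-LOS T cells 87.7 CPM (52.0 to 139), with a UMI in 4 of the 16 WT barcodes and in 9.09% and 10.2% of the mgR and mgR-LOS barcodes after thinning. The *Apoe* level of SMCs was 3.82 times that of T cells in WT (2.08 to 7.96), 1.39 times in mgR (1.09 to 1.80) and 5.79 times in mgR-LOS (3.66 to 9.77). The 160 B cells of the mgR library lay higher, at 285 CPM (257 to 315) and 24.4% of thinned barcodes, and SMCs of that library reached 0.647 times their level. The 67 mgR neutrophils held 2761 CPM (2518 to 3022) with a UMI in 20.9% of thinned barcodes, so the reference classes of that library differed by more than counting error. The shares of thinned barcodes with an *Apoe* UMI in WT SMCs and WT T cells had overlapping intervals (7.27 to 52.4 in the 16 T cells). The part of free RNA in the SMC levels was not tested. T and B cells were chosen as references after their values had been seen, and the median UMI counts of mgR T cells, B cells and SMCs were 4235, 6290 and 15228.

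**Figure D1:**
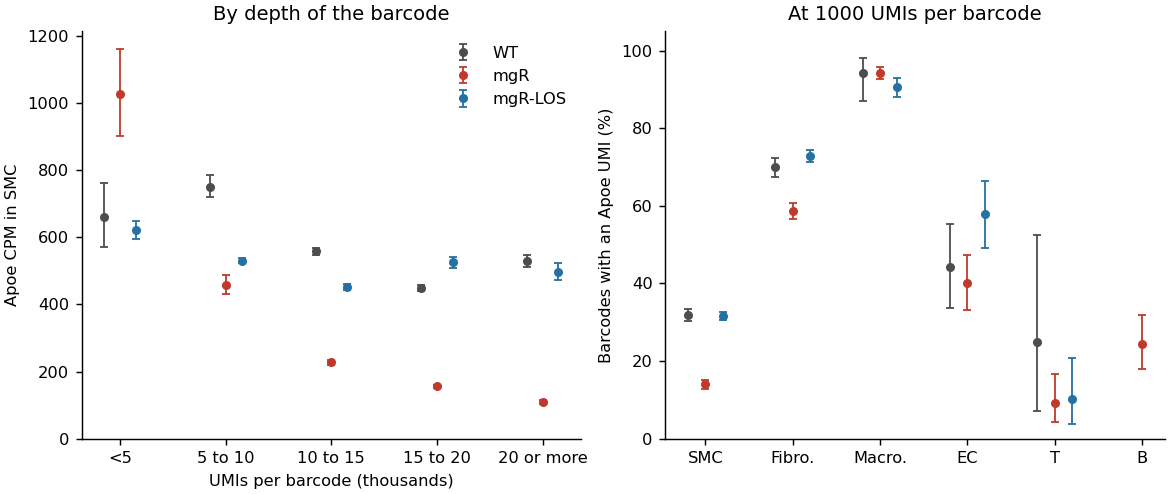
*Apoe* in SMCs by the number of UMIs of the barcode (left, CPM with exact Poisson 95% intervals) and the percentage of barcodes with an *Apoe* UMI after thinning to 1000 UMIs (right, exact binomial 95% intervals, classes of at least 10 barcodes), with WT in grey, mgR in red and mgR-LOS in blue. The mgR points fall from 1026 CPM in the shallowest to 108 CPM in the deepest barcodes, and at the right the WT, mgR and mgR-LOS SMCs stand at 31.8%, 14.0% and 31.6% beside T cells at 4 of 16 barcodes, 9.09% and 10.2% and mgR B cells at 24.4%.

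Depth of the barcode moved with the mgR level. Among mgR SMCs *Apoe* was at 1026 CPM in the 111 barcodes under 5000 UMIs, 459 CPM from 5000 to 10000, 228 CPM from 10000 to 15000, 156 CPM from 15000 to 20000 and 108 CPM in the 528 barcodes at 20000 or more. The WT bins ranged from 449 to 751 CPM and the mgR-LOS bins from 450.4 to 621 CPM. The mgR library was above WT in the shallowest bin (661 CPM in WT) and below it in the other 4. With barcodes of at least 10000 UMIs alone mgR over WT was 0.328 and mgR-LOS over mgR 2.84.

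The *Apoe* that remained in mgR SMCs sat in few barcodes. At least 10 *Apoe* UMIs were found in 808 of 3629 WT SMCs (22.3%), 183 of 3156 mgR SMCs (5.80%) and 960 of 7914 mgR-LOS SMCs (12.1%). These shares are not at a common depth, since the 3 SMC gates held medians of 14385, 15227.5 and 8532.5 UMIs. After thinning to 1000 UMIs, 5 or more *Apoe* UMIs were found in 1.02% of WT, 0.856% of mgR and 1.49% of mgR-LOS SMCs. The 183 mgR barcodes held 53.4% of the *Apoe* UMIs of that gate, and 50 of them were called doublets, against 44 of 808 in WT and 176 of 960 in mgR-LOS. In these mgR barcodes *Ccl2*, a monocyte chemoattractant, was at 309 CPM against 9.97 CPM in the remaining mgR SMCs, *Lyz2*, the lysozyme of myeloid cells, at 212 against 14.3 CPM, and *Dcn*, a fibroblast proteoglycan, at 251 against 56.3 CPM. The macrophage markers summed to 5.18, 17.9 and 23.1 CPM and the fibroblast markers to 103, 155 and 208 CPM in the WT, mgR and mgR-LOS SMC gates. Both sums were lowest in WT and highest in mgR-LOS. In barcodes without a UMI of either marker set the ratio of mgR over WT was 0.217 and that of mgR-LOS over mgR 4.01. The part of macrophage or fibroblast RNA in the SMC *Apoe* levels was not tested.

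Within SMCs *Apoe* ran with *Tnnt2*, the cardiac troponin T gene. The mean over libraries of the correlation across barcodes was 0.265 for *Tnnt2*, among the highest of 4863 genes, and -0.289 for *Postn*, -0.268 for *Susd5* and -0.266 for *Npnt*, the lowest. *Dcn* followed *Tnnt2* at 0.212. These are descriptions across barcodes that share a library and its depth. In SMCs with at least 3 *Tnnt2* UMIs *Apoe* was at 661 CPM in WT, 360 CPM (348 to 371) in mgR and 854 CPM in mgR-LOS, and in the other SMCs at 482, 135 and 409 CPM. The share of SMCs with at least 3 *Tnnt2* UMIs was 19.2%, 20.8% and 19.6%. These shares are not at a common depth, since the WT, mgR and mgR-LOS SMC gates held medians of 14385, 15227.5 and 8532.5 UMIs. They therefore cannot show whether *Tnnt2* differed between the libraries. The mgR *Apoe* level was below the other 2 libraries on both sides of this split. Its ratio of mgR over WT was 0.544 among SMCs with at least 3 *Tnnt2* UMIs and 0.280 among the rest. A split by *Susd5* gave another order. SMCs with a *Susd5* UMI held 498, 135 and 430.4 CPM of *Apoe*, but in the 345 WT, 268 mgR and 2161 mgR-LOS SMCs without one mgR was highest, at 1118 CPM (1076 to 1161) against 832 CPM (801 to 864) in WT and 786 CPM (772 to 800.0) in mgR-LOS. The mgR SMCs without a *Susd5* UMI were also shallower, with a median of 9394 UMIs against 15553 in those with one. SMCs with UMIs of at least 2 of *Vcam1*, *Spp1*, *Lcn2* and *Tnfrsf11b*, markers of modulated SMCs, numbered 57, 637 and 303. *Apoe* was at 764, 232 and 555 CPM in them and at 515, 170 and 505 CPM in the other SMCs.

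Fibroblasts followed the direction of SMCs and macrophages did not. The *Apoe* ratio of mgR over WT was 0.521 (0.515 to 0.526) in fibroblasts, 0.794 (0.745 to 0.847) in ECs and 1.06 (1.04 to 1.08) in macrophages. For mgR-LOS over mgR it was 1.62 (1.61 to 1.64) in fibroblasts, 1.87 (1.77 to 1.97) in ECs and 0.724 (0.717 to 0.732) in macrophages. In fibroblasts 111 of 6146 genes had a lower ratio of mgR over WT. Fibroblasts without a UMI of *Pi16*, an adventitial fibroblast gene, held 8229, 3872 and 6173 CPM of *Apoe*, and those with one 3357, 1714 and 2551 CPM, so the mgR library was lowest on both sides of this split, which was chosen after its values had been seen. Macrophages with UMIs of at least 2 of *Folr2*, *F13a1*, *Mrc1*, *Lyve1* and *Cbr2*, markers of resident macrophages, held more *Apoe* than the others, with 18402 against 12694 CPM in WT, 20447 against 12599 CPM in mgR and 15068 against 7822 CPM in mgR-LOS.

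In ECs *Apoe* belonged to a minority of the barcodes. The 28 of 88 WT, 58 of 199 mgR and 50 of 133 mgR-LOS barcodes with at least 10 *Apoe* UMIs held 92.1%, 92.7% and 93.0% of the EC *Apoe* UMIs. *Bmp4*, a morphogen made by the aortic endothelium, was at 765, 1431 and 1134 CPM in them and at 124, 168 and 118 CPM in the other ECs. ECs with at least 2 luminal aortic markers (*Cytl1*, *Bmp4*, *Edn1*, *Sox17*, *Fbln5*, *Vwf*) held 3003, 3080 and 5253 CPM of *Apoe*, against 785, 189 and 518 CPM in the rest. Within the luminal ECs WT and mgR were thus close and mgR-LOS was higher. The EC ratio of mgR-LOS over mgR fell to 1.16 under the stricter gate.

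The genes whose level was most like that of *Apoe* over the 12 sums of 4 classes and 3 libraries, among 8805 genes, were *Jmjd1c* (Pearson's r = 0.977), *Eps15* (0.976), *Dynlt1f* (0.973), *Snx10* (0.971) and *Daglb* (0.970), on the log2(CPM + 1) scale. The 12 sums share libraries and classes, and macrophages are highest in all 5 of these genes' sums as in those of *Apoe*.

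**Figure D2:**
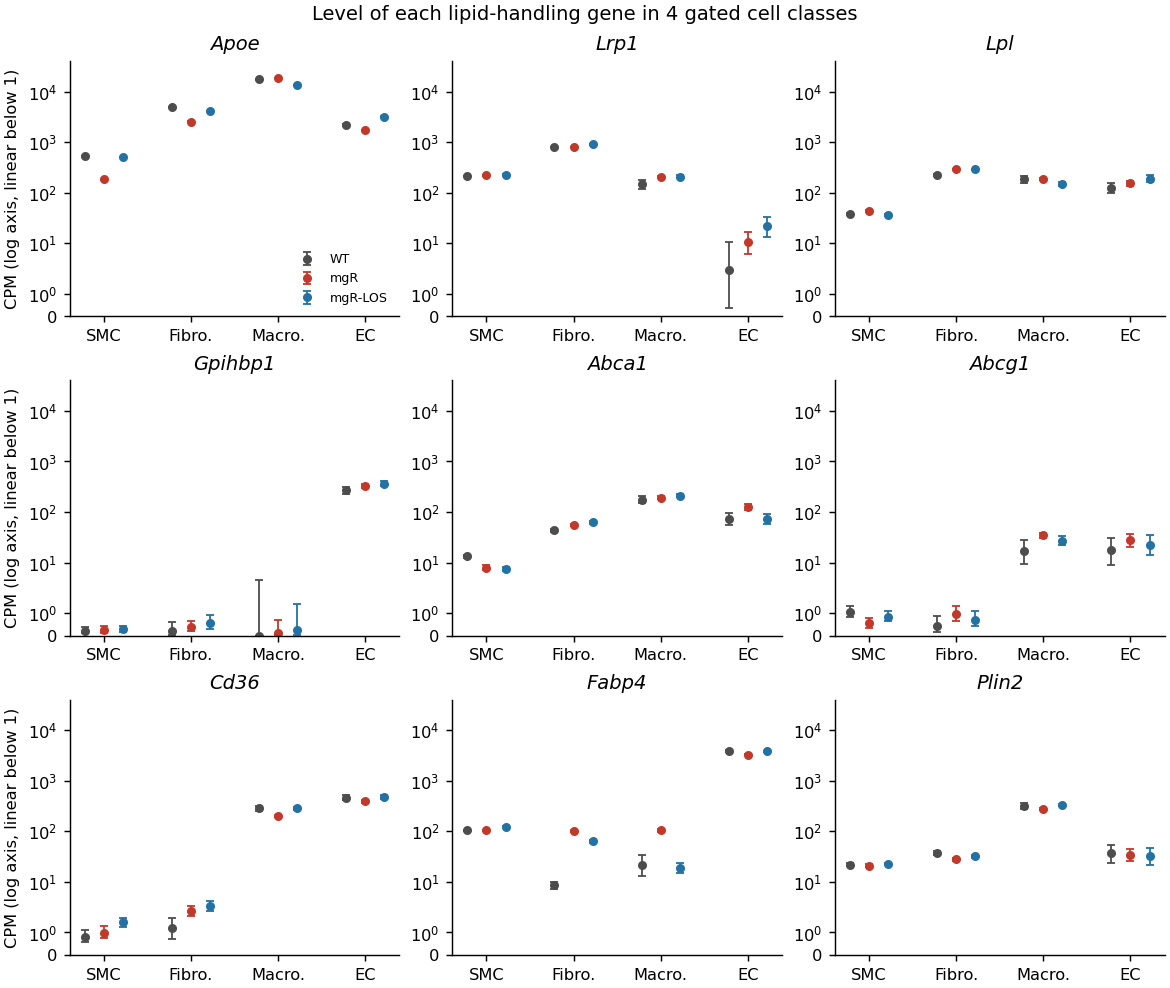
Level of the 9 genes in SMCs, fibroblasts (Fibro.), macrophages (Macro.) and ECs of the WT (grey), mgR (red) and mgR-LOS (blue) libraries, as CPM on an axis that is logarithmic above 1 and linear below, with exact Poisson 95% intervals. The class with the highest level is the same in the 3 libraries for each gene but *Abcg1*, whose macrophage and EC intervals overlap.

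*Lrp1* (chr10:127538161-127621148, minus strand) was a fibroblast gene, and in fibroblasts and SMCs it lay within 1.5-fold between libraries. Its level was 802, 805 and 906 CPM in WT, mgR and mgR-LOS fibroblasts and 213, 220 and 228 CPM in SMCs. In macrophages the same libraries gave 145 (121 to 174), 203 (193 to 213) and 206 CPM (192 to 221). ECs held 2, 17 and 20 UMIs in all (2.94, 10.5 and 21.6 CPM). As a ratio, mgR over WT was 1.03 (1.00 to 1.06) in SMCs, 1.00 (0.982 to 1.03) in fibroblasts and 1.40 (1.16 to 1.69) in macrophages. So the receptor did not follow its ligand in SMCs or fibroblasts, where *Apoe* was lower in mgR. The annotation places *Gm16217* on the opposite strand within *Lrp1*.

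*Lpl* (chr8:68880491-68907448, plus strand), the lipase of plasma triglycerides, was found in fibroblasts at 225, 288 and 291 CPM, in macrophages at 183, 186 and 149 CPM, in ECs at 124, 152 and 189 CPM and in SMCs at 38.6, 43.7 and 35.6 CPM. Fibroblasts with a UMI of *Gdf10* held 431, 418 and 421 CPM of *Lpl* against 141, 131 and 182 CPM in those without, a split chosen after its values had been seen. In all fibroblasts mgR over WT was 1.28 (1.23 to 1.33), yet on neither side of that split was mgR above WT. The *Gdf10* side held 420 of 1326 WT and 1305 of 2406 mgR fibroblasts. In mgR the SMCs with modulated markers held 71.0 CPM of *Lpl* and the other SMCs 35.5 CPM, a ratio of 1.999 (1.83 to 2.18), against 1.07 (0.764 to 1.47) in WT and 1.37 (1.16 to 1.60) in mgR-LOS. In SMCs the *Lpl* ratio of mgR over WT ranged from 0.934 to 1.55 over the alternatives.

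*Gpihbp1* (chr15:75596628-75599481, plus strand), which anchors the lipase on capillaries, was an EC gene. WT ECs held 266 CPM (229 to 308), mgR ECs 324 CPM (297 to 353) and mgR-LOS ECs 365 CPM (327 to 406). SMCs, fibroblasts and macrophages held 0.541 CPM or less in each library. WT macrophages held 0 UMIs, which allows up to 3.603 CPM. In ECs mgR over WT was 1.22 (1.03 to 1.45) and that of mgR-LOS over mgR 1.12 (0.978 to 1.29).

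The lipase, its anchor and the fatty acid genes *Cd36* and *Fabp4* were found together in a small set of ECs. ECs with UMIs of at least 2 of the capillary markers *Rgcc*, *Car4*, *Btnl9*, *Tcf15*, *Meox2* and *Aqp7*, none of them among the 9 genes, numbered 17 of 88, 33 of 199 and 23 of 133. *Fabp4* was at 16483, 15133 and 13665 CPM in them and at 757, 711 and 913 CPM in the other ECs. *Cd36* was at 2207, 1969 and 1924 CPM against 33.1, 50.2 and 50.5 CPM. *Gpihbp1* was at 1096, 1165 and 1229 CPM against 60.6, 143 and 108 CPM, and *Lpl* at 429, 678 and 652.5 CPM against 47.7, 39.0 and 51.9 CPM. *Apoe* had the opposite order, with 711, 710 and 463 CPM in the capillary set and 2503, 1919 and 3993 CPM outside it. *Plin2* was also higher in the set, at 118, 76.5 and 66.2 CPM against 16.5, 24.7 and 22.5 CPM.

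**Figure D3:**
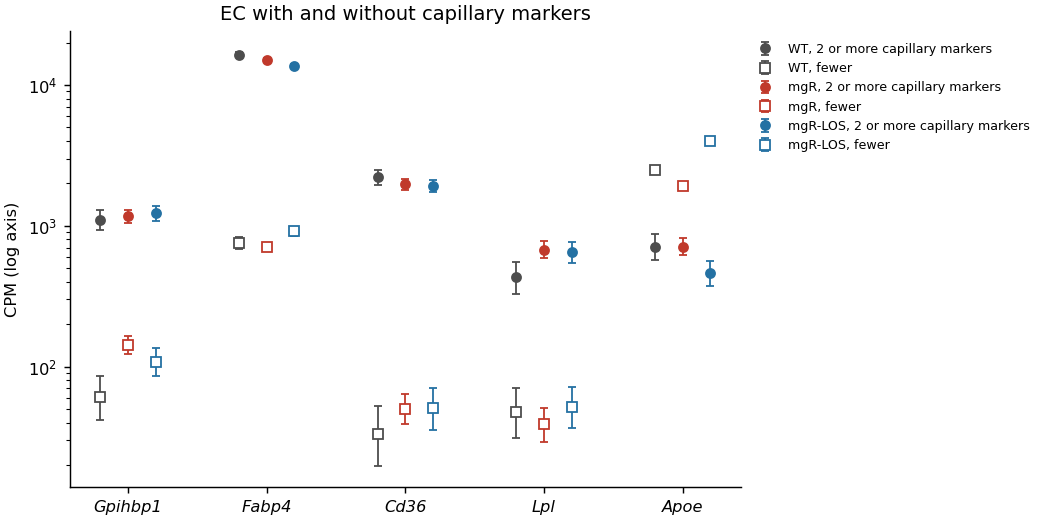
*Gpihbp1*, *Fabp4*, *Cd36*, *Lpl* and *Apoe* in ECs with UMIs of at least 2 capillary markers (filled circles, 17 WT, 33 mgR and 23 mgR-LOS barcodes) and in the other ECs (open squares), as CPM on a log axis with exact Poisson 95% intervals. The filled points lie above the open ones in each library for the first 4 genes and below them for *Apoe*.

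Counted per barcode, a *Cd36* UMI at 1000 UMIs was found in 39.3% of the 28 WT ECs with a *Gpihbp1* UMI and in 3.33% of the 60 without. In mgR the shares were 34.7% of 75 and 3.28% of 122, and in mgR-LOS 58.1% of 43 and 3.33% of 90. For *Apoe* they ran the other way, at 7 of 28 and 53.3% in WT, 12 of 75 and 54.9% in mgR, and 37.2% and 67.8% in mgR-LOS. The pattern was the same in the 3 libraries. The numbers of ECs in the capillary set are not at a common depth. The WT, mgR and mgR-LOS EC gates held medians of 6770, 7816 and 5365 UMIs. The 6 capillary markers summed to 308, 310 and 491 CPM in these gates, highest in mgR-LOS.

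*Abca1* (chr4:53030787-53159895, minus strand), which loads cholesterol onto apolipoproteins, was at 177, 194 and 209 CPM in macrophages, 43.2, 54.6 and 62.1 CPM in fibroblasts, and 13.2, 7.96 and 7.35 CPM in SMCs. In SMCs the WT level lay above the other 2, with a ratio of mgR over WT of 0.604 (0.532 to 0.686), but every SMC level was under 20 CPM. WT ECs held 73.6 CPM of *Abca1* (54.6 to 97.0), mgR ECs 128 CPM (111 to 147) and mgR-LOS ECs 73.6 CPM (57.1 to 93.3). The EC ratio of mgR over WT was 1.74 (1.27 to 2.42), from 50 WT and 208 mgR UMIs, and that of mgR-LOS over mgR 0.574 (0.430 to 0.758). ECs without a macrophage-marker UMI gave 1.41 for mgR over WT, within 1.5-fold. ECs with at least 2 lymphatic markers held 134, 186 and 103 CPM of *Abca1* against 48.1, 84.9 and 50.3 CPM in the others, so the mgR library was highest on both sides. The lymphatic markers summed to 2462, 5440 and 3890 CPM in the WT, mgR and mgR-LOS EC gates, also highest in mgR. The part of lymphatic ECs in the EC *Abca1* ratios was not tested.

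*Abcg1* (chr17:31057675-31117988, plus strand), which passes cholesterol to high-density lipoprotein, was low in each class. Its macrophage levels were 16.8 (9.19 to 28.2), 34.6 (30.7 to 38.8) and 27.2 CPM (22.1 to 33.0) in WT, mgR and mgR-LOS, and those of ECs 17.7, 27.7 and 22.7 CPM. For mgR over WT the ratio was 2.06 (1.21 to 3.81) in macrophages, from 14 WT UMIs, and 1.57 (0.817 to 3.26) in ECs. SMCs and fibroblasts held 1.07 CPM or less.

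*Cd36* (chr5:17781690-17888801, minus strand), the fatty acid and scavenger receptor, was at 465, 390.2 and 479 CPM in ECs and at 286, 200 and 284 CPM in macrophages, lowest in mgR in both classes, though in ECs the WT and mgR intervals overlapped. The macrophage ratio was 0.698 (0.609 to 0.804) for mgR over WT and 1.42 (1.31 to 1.54) for mgR-LOS over mgR, both within 1.5-fold. Macrophages with resident markers held 322, 236 and 349 CPM of *Cd36* and the others 124, 98.04 and 78.2 CPM. SMCs held at most 1.58 CPM and fibroblasts at most 3.36 CPM.

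*Fabp4* (chr3:10204088-10208576, minus strand), the fatty acid-binding protein of capillaries, adipocytes and some macrophages, was at 3882, 3267 and 3831 CPM in ECs. In SMCs it was found at 106, 106 and 122 CPM, with a UMI in 10.0%, 10.0% and 10.5% of thinned barcodes. T cells gave at most 1.69%, but the WT value was 0 of 16 barcodes, with an upper limit of 20.6%. The 67 mgR neutrophils held 158 CPM (104 to 230), with a UMI in 4.48% of thinned barcodes. The 160 mgR B cells held 10.6 CPM. The SMC ratio of mgR over WT was 0.996 (0.959 to 1.03). EC markers summed to 22.7, 8.83 and 15.5 CPM in the SMC gate. The part of EC RNA in the SMC *Fabp4* levels was not tested.

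Fibroblasts gave the largest ratio of mgR over WT among the 9 genes, and it was one of *Fabp4*. WT fibroblasts held 8.55 CPM (7.13 to 10.2), mgR fibroblasts 103 CPM (99.2 to 106) and mgR-LOS fibroblasts 63.1 CPM (60.1 to 66.3). That made mgR 12.02 times WT (10.1 to 14.5). The ratio of mgR-LOS over mgR was 0.614 (0.578 to 0.653) and that of mgR-LOS over WT 7.38 (6.16 to 8.92). Of the genes tested, 6137 of 6146 had a lower ratio of mgR over WT. *Fabp4* reached the 20 CPM of that filter in mgR and not in WT, which favors a high ratio, so the rank is a description. At least 2 *Fabp4* UMIs were found in 21 of 1326 WT (1.58%), 404 of 2406 mgR (16.8%) and 253 of 3118 mgR-LOS fibroblasts (8.11%). In these mgR fibroblasts *Hp*, the gene of haptoglobin, was at 275 CPM against 37.8 CPM in the remaining ones, *Cxcl13*, a B cell chemokine, at 133 against 19.3 CPM, and *Gdf10* at 735 against 534 CPM. *Dcn* was at 6922 against 9375 CPM. Of the adipocyte markers, *Adipoq* was at 0.521 against 0.0818 CPM (3 and 2 UMIs) and *Plin1* at 1.56 against 0.0818 CPM (9 and 2 UMIs), and *Cdh5*, the EC cadherin, was at 2.60 against 1.02 CPM (15 and 25 UMIs), so all 3 were low and higher in the barcodes with *Fabp4*. *Pecam1*, another EC marker with more UMIs (55 and 208), was at 9.55 (7.20 to 12.4) against 8.50 CPM (7.39 to 9.74), with overlapping intervals. The 6 capillary markers summed to 29.5, 64.6 and 49.1 CPM in the WT, mgR and mgR-LOS fibroblast gates, the same order as *Fabp4*. Nearly all of that sum was *Rgcc* (15.1, 24.5 and 13.03 CPM) and *Meox2* (14.1, 39.9 and 35.8 CPM), while *Car4*, *Btnl9*, *Tcf15* and *Aqp7* held 0.271 CPM or less each. In the 253 mgR-LOS barcodes the adipocyte markers *Cfd* and *Car3* were at 71.2 and 75.2 CPM, against 0.648 and 6.65 CPM in the remaining mgR-LOS fibroblasts, and *Adipoq* was at 3.69 CPM. Over the whole fibroblast gates the 6 adipocyte markers summed to 11.2, 7.58 and 23.4 CPM in WT, mgR and mgR-LOS. The 6 EC markers summed to 90.2, 87.1 and 87.6 CPM. The part of adipocyte or capillary RNA in the fibroblast levels was not tested.

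Among macrophages *Fabp4* was at 21.6 (12.8 to 34.2), 104.9 (97.97 to 112) and 18.9 CPM (14.8 to 23.8) in WT, mgR and mgR-LOS, so the mgR library stood above both. Relative to WT, mgR thus held 4.85 times as much (3.05 to 8.22), and the ratio of mgR-LOS over mgR was 0.180 (0.139 to 0.230). Mesothelial markers moved with it in the macrophage gate, where the sum of the 4 was 0, 19.9 and 0.532 CPM in WT, mgR and mgR-LOS. The 6 capillary markers summed to 8.41, 22.6 and 10.4 CPM, nearly all of it *Rgcc* (8.41, 22.1 and 9.58 CPM). Other lists were also highest in mgR there, such as monocyte markers (108, 415 and 183 CPM), while neutrophil markers were highest in WT (70.9, 33.6 and 27.2 CPM). The part of RNA from these cell types in the *Fabp4* levels was not tested. In mgR nearly all of the *Fabp4* sat in a small set of barcodes. The 37 of 934 mgR macrophages with at least 3 *Fabp4* UMIs held 796 of the 864 *Fabp4* UMIs (92.1%), and WT had 2 such barcodes of 87 and mgR-LOS 5 of 541. In the 37 barcodes *Saa3*, an acute-phase gene, was at 10773 CPM against 80.6 CPM in the other mgR macrophages, *Prg4*, the gene of lubricin, at 2797 against 18.4 CPM, and *Alox15*, a lipoxygenase gene, at 1775 against 6.26 CPM. *Marco*, a scavenger receptor, was at 817 against 12.8 CPM, while *Folr2* was at 91.5 against 571 CPM. *Alox15* and *Prg4* are known from macrophages of serous cavities. Without the barcodes that held an *Alox15* or *Prg4* UMI mgR over WT came to 0.583 (0.350 to 1.03) and mgR-LOS over mgR to 1.31 (0.930 to 1.82). This left 869 mgR, 87 WT and 527 mgR-LOS macrophages. Both genes were picked after their values had been seen, as genes high in the 37 barcodes, so a fall of the mgR level was built in. The exclusion took no WT barcode, and the 2 WT barcodes that held 14 of the 18 WT *Fabp4* UMIs stayed. With all macrophages the ratio of mgR over WT ranged from 1.54 with the looser gate to 13.02 with a mitochondrial limit of 5%.

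**Figure D4:**
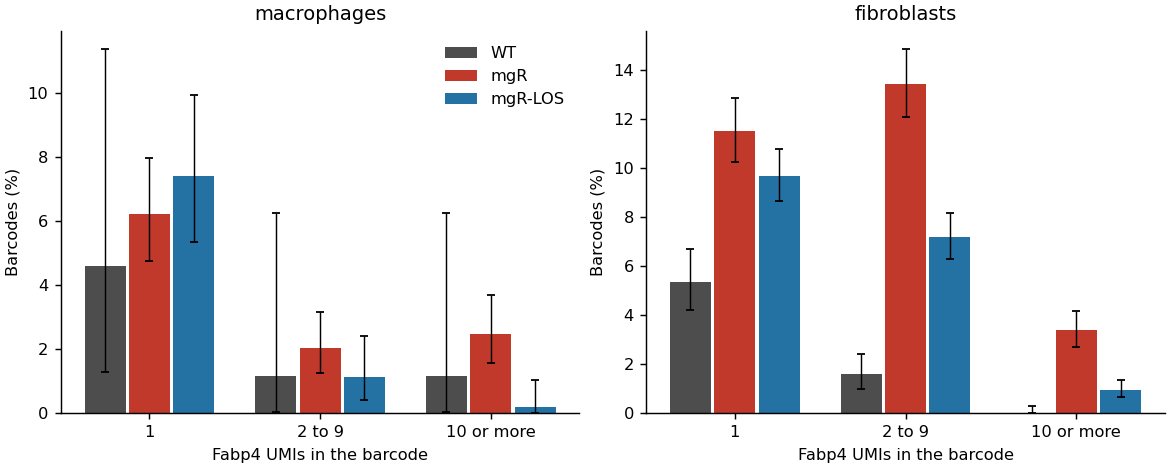
Percentage of macrophages (left) and fibroblasts (right) with 1, 2 to 9 or 10 or more *Fabp4* UMIs in the WT (grey), mgR (red) and mgR-LOS (blue) libraries, with exact binomial 95% intervals and barcodes without a *Fabp4* UMI not drawn. Among fibroblasts the mgR bars are the highest in each of the 3 groups. Among macrophages the mgR bar at 10 or more UMIs (2.46%) lies above that of mgR-LOS (0.185%). It lies inside the wide WT interval (0.0291 to 6.24, from 1 of 87 barcodes).

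*Plin2* (chr4:86648386-86670060, minus strand), which coats lipid droplets in most cells that store fat, was at 321, 280 and 336 CPM in macrophages and between 20.9 and 37.4 CPM in the other 3 classes. Its ratios lay between 0.758 and 1.20 in each class and in both comparisons. Resident-marker macrophages held 350.2, 297 and 393 CPM and the others 189, 232 and 159 CPM, so the mgR library was lowest on one side and highest on the other.

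Counted over the 9 genes, 1 to 3 lay past 1.5-fold in each class and comparison. In SMCs this was *Apoe*, by whose level there the genes were chosen. For mgR over WT, 5 genes passed the filter in SMCs and 1 (*Apoe*) was past 1.5-fold, against 8.63% of all genes tested. In fibroblasts 2 of 6 were past it (*Fabp4* higher, *Apoe* lower; 10.5% of all genes), in macrophages 2 of 8 (*Abcg1* and *Fabp4* higher; 14% of all genes) and in ECs 2 of 8 (*Abca1* and *Abcg1* higher; 19.8% of all genes). For mgR-LOS over mgR, *Apoe* was past 1.5-fold in SMCs (1 of 5 genes; 7.49% of all genes), *Apoe* higher and *Fabp4* lower in fibroblasts (2 of 6; 6.4%), and *Fabp4* lower in macrophages (1 of 8; 6.83%). In ECs 3 of 9 were past it, *Apoe* and *Lrp1* higher and *Abca1* lower, against 17.2% of all genes, and *Lrp1* rested on 17 and 20 UMIs. For mgR over WT, *Fabp4* in fibroblasts and *Abcg1* in macrophages and ECs reached 20 CPM in the mgR library alone. For mgR-LOS over mgR, *Fabp4* in macrophages did so in mgR alone and *Lrp1* in ECs in mgR-LOS alone. Genes under the filter, such as *Gpihbp1*, *Abca1*, *Abcg1* and *Cd36* in SMCs, had no call.

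**Figure D5:**
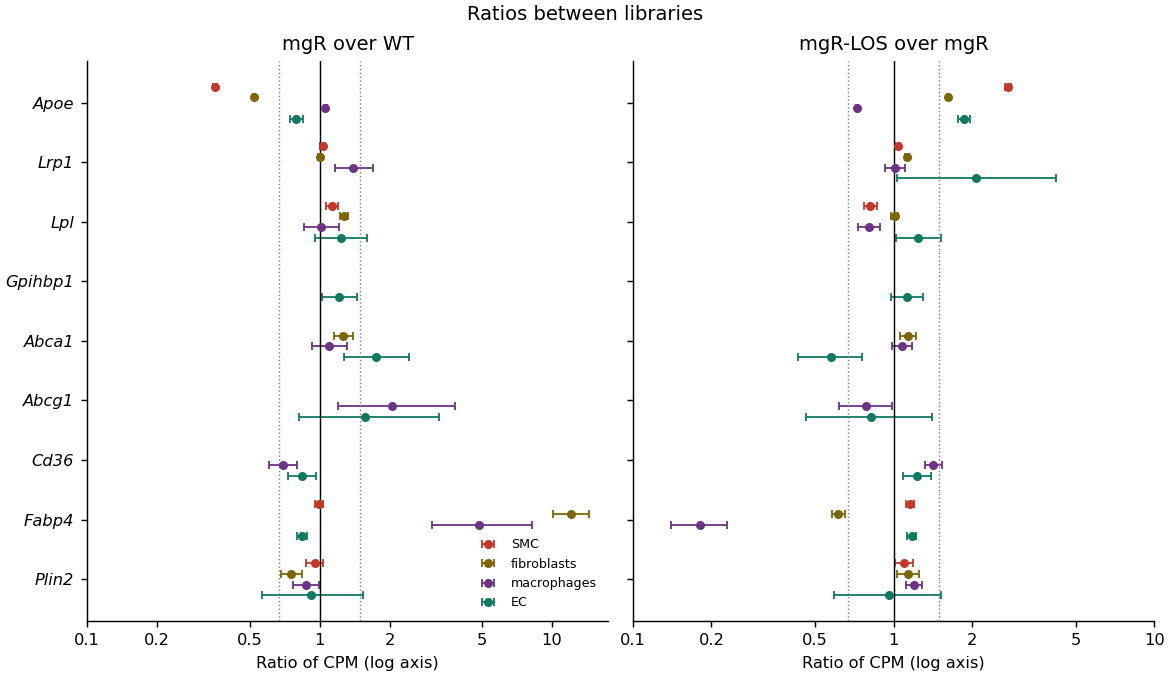
Ratio of CPM for mgR over WT (left) and mgR-LOS over mgR (right), on a log axis with exact 95% intervals, for the 9 genes in SMCs (red), fibroblasts (olive), macrophages (purple) and ECs (green), where the gene passed the filter of 20 CPM and 30 UMIs. Dotted lines mark 1.5-fold. The points farthest from 1 are *Fabp4* in fibroblasts (12.02, left) and macrophages (4.85 and 0.180), followed by *Apoe* in SMCs (0.355 and 2.75).

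A list of 84 further lipid genes was read the same way. For mgR over WT, 38 were tested in SMCs, of which 3 were higher and 3 lower, with a median ratio of 1.11 against 0.989 over all genes. The genes past 1.5-fold in either direction were 6 of 38 in SMCs, 7 of 44 in fibroblasts, 8 of 40 in macrophages and 10 of 43 in ECs, against 8.63%, 10.5%, 14% and 19.8% of all genes tested. The EC count thus lay near that of all genes, and the other counts lay only a few genes above it. For mgR over WT in SMCs the genes past 1.5-fold were as follows. Lower were *Angptl2*, an angiopoietin-like gene (0.410), *Fabp3*, the heart fatty acid-binding protein (0.450), and *Vldlr*, a further receptor of ApoE (0.619). WT, mgR and mgR-LOS SMCs held 157, 97.4 and 148 CPM of *Vldlr*, the same order over the libraries as *Apoe*. Higher were *Soat1*, which esterifies cholesterol (1.82), and the sterol synthesis genes *Sqle* (1.70) and *Cyp51* (1.59). In fibroblasts 4 of 44 were higher, among them the oxysterol enzyme gene *Ch25h* (6.48), *Fabp5* (2.04) and the phospholipid transfer gene *Pltp* (1.76), and the 3 lower were *Sorl1* (0.426), *Lrp5* (0.615) and the apolipoprotein gene *Clu* (0.637). In macrophages 7 of 40 were higher, led by *Fabp5* (23.95, from 4 WT UMIs), *Clu* (3.05, from 7 WT UMIs) and *Idi1* (2.21, from 12 WT UMIs), and *Abhd5*, a cofactor of lipolysis, was lower (0.531). In ECs 5 of 43 were higher, led by *Cyp51* (2.85, from 5 WT UMIs), *Apold1* (2.42) and *Srebf1* (1.73, 0.783 to 4.33), and 5 were lower, led by *Pltp* (0.370), *Fabp5* (0.497) and *Nr1h3* (0.524, 0.258 to 1.08). Several of these genes reached 20 CPM only in the library where they were high, so the filter favored ratios away from 1. That library was mgR for *Soat1* and *Sqle* in SMCs and *Ch25h* in fibroblasts. It was also mgR for *Fabp5*, *Clu* and *Idi1* in macrophages and *Cyp51* and *Srebf1* in ECs. It was WT for *Sorl1* in fibroblasts, *Abhd5* in macrophages and *Nr1h3* in ECs.

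Most of the sterol synthesis genes tested in SMCs and macrophages had transcript levels past 1.5-fold lower in mgR-LOS than in mgR. Fewer of those in fibroblasts and ECs were past 1.5-fold, though their median ratios also lay below 1. The sterol synthesis group was taken from the list with its values in view. Over the whole list, 2 were past 1.5-fold higher and 8 lower of 39 in SMCs, and 2 and 6 of 44 in fibroblasts. In macrophages these counts were 1 and 6 of 40, and in ECs 8 and 9 of 45. In SMCs 6 of the 7 sterol genes tested were past 1.5-fold lower, with a median ratio of 0.648, in macrophages 4 of 6 (0.552), in fibroblasts 3 of 8 (0.726) and in ECs 2 of 7 (0.878), where the shares of all genes past 1.5-fold lower were 3.71%, 2.86%, 3.42% and 8.31%. In mgR and mgR-LOS SMCs *Idi1* was at 34.4 and 16.03 CPM and *Insig1* at 29.3 and 14.0 CPM. Both genes were named after their values had been seen. They and *Sqle* (21.9 and 14.4 CPM) reached 20 CPM in the mgR library alone, which tilts the SMC count toward lower ratios. The same held in ECs for both genes counted as lower, *Cyp51* (20.96 and 4.33 CPM) and *Srebf1* (20.3 and 11.9 CPM). It also held for *Idi1* in macrophages (31.8 and 6.92 CPM), so the EC and macrophage counts are tilted as well. The shares of all genes rest on the same filter. The median ratio of the tested sterol genes for mgR over WT was 1.44 in SMCs (7 genes) and 1.05 in fibroblasts (8 genes). For mgR-LOS over WT it was 0.942 (5 genes) and 0.607 (7 genes), so these medians cover unlike sets of genes.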

How the data were processed

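The authors pooled ascending aortas per condition, made 3′ droplet libraries and aligned the reads to GRCm38 (mm10). The deposited values were raw UMI counts for each gene in each barcode. Per the file headers CellRanger was release 5.0.1 for WT and mgR and 6.0.1 for mgR-LOS, whereas the submitters' processing notes list 6.0.1 for the 3 libraries. There were 7858 WT, 10657 mgR and 14663 mgR-LOS barcodes, holding 83338726, 123956320 and 121436873 UMIs.

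The study's limits of 600 to 5000 genes and of 10% for mitochondrial UMIs left 5361, 8076 and 12721 barcodes. Gates required marker sums of at least 100 (SMCs), 30 (fibroblasts and macrophages) or 15 (ECs, T and B cells) UMIs per 10000, with the sums of the other aortic classes below theirs. The thresholds were set after the marker sums had been seen. Barcodes over several thresholds (2.67%, 5.53% and 5.20%) or under all were left out of the 4 classes. Doublets were scored with artificial neighbors (scikit-learn 1.9.0) and removed only as an alternative, and 156 WT, 286 mgR and 800 mgR-LOS calls remained among SMCs. Counts were summed per class and library. Intervals (scipy 1.17.1) were Poisson for sums, Clopper-Pearson for shares and conditional binomial for ratios. A gene was tested for 1.5-fold with at least 20 CPM in either library and 30 UMIs over both, and a count of 0 was read as allowing 3 counts. The calculation of ratios was tested on simulated data. Gene positions came from GENCODE M21 on GRCm38.

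Members and lists were chosen with earlier results of these data known. Named are the 9 genes, *Fbn1*, per class the 3 highest and 3 lowest listed lipid genes past 1.5-fold for mgR over WT, the 5 genes most like *Apoe*, and markers where a result turned on them. Other genes were picked with their values in view. Values of some single genes are not reported here.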

Additional observations from a re-analysis of the deposited data

Results flagged for a closer look

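For several genes the ratio lay above 1 in one cell class and below 1 in another. These differences between classes were not tested, since each rests on single libraries, and in none of the pairs were both ratios past 1.5-fold at levels that passed the filter. For mgR over WT, the *Apoe* ratio in macrophages was 2.98 times that in SMCs, the *Abca1* ratio in ECs 2.88 times that in SMCs and the *Abcg1* ratio in macrophages 4.08 times that in SMCs. The SMC levels of *Abca1* and *Abcg1* were under the filter, that of *Abcg1* rested on 55 WT and 26 mgR UMIs, and its ratio ranged from 0.292 to 1.13 over the alternatives. The *Cd36* ratio in fibroblasts was 3.17 times that in macrophages, though *Cd36* was at 3.36 CPM or less in fibroblasts, and the *Fabp4* ratio in fibroblasts was 14.3 times that in ECs. For mgR-LOS over mgR, the *Apoe* ratio in SMCs was 3.799 times that in macrophages and the *Fabp4* ratio in ECs 6.51 times that in macrophages. In the same comparison the *Lpl* ratio in ECs was 1.55 times that in macrophages, and the *Abca1* ratio in fibroblasts 1.98 times that in ECs.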

How the results depend on the processing

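No paired analysis was possible because each condition had 1 library. The SMC *Apoe* ratios below hold the mgR level by which *Apoe* was chosen, so their ranges describe the processing alone. Over 11 alternatives the *Apoe* ratio in SMCs stayed past 1.5-fold, from 0.277 to 0.503 for mgR over WT and from 1.96 to 3.33 for mgR-LOS over mgR, and the cause of the changes was not tested. For mgR over WT it was 0.463 with a mitochondrial limit of 5%, 0.503 with barcodes given to their highest marker set, 0.277 with a stricter and 0.380 with a looser gate, 0.304 without called doublets, 0.337 without macrophage-marker UMIs, 0.345 without mitochondrial, ribosomal, globin and marker genes, 0.439 as a mean over barcodes and 0.445 at 1000 UMIs. For mgR-LOS over mgR it was 1.96 at the 5% limit, 2.27 by the highest set, 3.33 and 2.62 with the stricter and looser gates, 3.15 without called doublets, 2.88 without macrophage-marker UMIs, 2.26 as a mean over barcodes and 2.32 at 1000 UMIs. The *Lrp1* ratio in SMCs was 1.00 without the gene groups above. In fibroblasts the *Apoe* ratio of mgR over WT was 0.500 with no upper limit on genes, 0.533 at the 5% limit, 0.531 by the highest set, 0.552 and 0.513 with the stricter and looser gates, 0.514 without the gene groups, 0.608 as a mean and 0.615 at 1000 UMIs. In macrophages it was 1.10 at the 5% limit and without doublets, 1.01 after division by the median ratio and 1.03 at 1000 UMIs. In ECs it was 0.712 with no upper limit on genes, 0.675 at the 5% limit, 0.615 by the highest set, 0.987 as a mean and 1.02 at 1000 UMIs, where the direction was lost. The number of listed lipid genes past 1.5-fold for mgR over WT, 7 in fibroblasts, was 4 with means over barcodes. In macrophages it was 8, and 14 at 1000 UMIs or 20 at a filter of 5 CPM, and in ECs 10, and 16 at the 5% limit or 4 at 1000 UMIs. Alternatives chosen after the data were seen concerned depth, marker UMIs, *Tnnt2* and *Alox15* or *Prg4*. The SMC *Apoe* ratios for mgR over WT and mgR-LOS over mgR were 0.328 and 2.84 with at least 10000 UMIs, 0.217 and 4.01 without macrophage or fibroblast-marker UMIs, 0.544 and 2.37 with at least 3 *Tnnt2* UMIs and 0.280 and 3.03 with fewer, while in SMCs without a *Susd5* UMI the mgR level (1118 CPM) lay above that of WT (832 CPM). Leaving out macrophages with *Alox15* or *Prg4* gave *Fabp4* ratios of 0.583 (0.350 to 1.03) for mgR over WT and 1.31 (0.930 to 1.82) for mgR-LOS over mgR, both intervals including 1. Since these 2 genes were picked as high in the mgR barcodes with most *Fabp4*, a fall of the mgR level was built in. With all macrophages the *Fabp4* ratio of mgR over WT ranged from 1.54 with the looser gate to 13.02 at the 5% limit. The EC *Abca1* ratio ranged from 1.41 to 4.91. The 87 macrophages and 88 ECs of the WT library limit the values of both classes.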

Other observations

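*Plin2* and *Abcg1* were also found in T cells. The 16 WT, 99 mgR and 60 mgR-LOS T cells held 313 (198 to 469), 76.2 (53.9 to 104.6) and 214 CPM (156 to 288) of *Plin2*, and *Abcg1* at 54.4, 30.1 and 53.6 CPM. T cells thus held more *Plin2* than SMCs, fibroblasts or ECs of the same library, with the mgR library lowest. The 160 mgR B cells held 20.4 CPM of *Plin2* (13.4 to 29.6), no more than the SMCs, and 30.2 CPM of *Abcg1*. The 67 mgR neutrophils held 614 CPM of *Plin2* (502 to 744), above the 280 CPM of mgR macrophages. Their *Abcg1* level was 70.2 CPM (36.3 to 123). *Fabp5*, a further fatty acid-binding protein gene, was concentrated like *Fabp4* in macrophages. The 81 of 934 mgR macrophages with at least 3 *Fabp5* UMIs held 82.9% of its UMIs, and there were 0 such barcodes among 87 in WT and 4 among 541 in mgR-LOS.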
